A study of Mus musculus with 12 samples.

Results

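The genes described here encode protein kinases, protein phosphatases and proteins that carry or bind their names, as represented on Affymetrix MG-U74B arrays of the mouse hippocampus. Members were found by gene symbol, from the Mapk, Map2k to Map4k, Mark, Camk, Prk, Cdk, Stk, Pak, Dyrk, Csnk and Rps6k kinase families and the Ppp, Ptpn and Ptpr phosphatase families. Of 131 such genes with a probe set of 1 symbol, 105 reached a log2 value above 4 in 3 or more of the 12 arrays and were taken as measured. They are 105 of 4617 measured genes of the whole series. A probe set is a group of short probes for 1 transcript, and where a gene had several measured ones the set with the highest mean over all arrays stood for it. Of the 105 members, 96 were over 4 in all 12 arrays and 9 in fewer, and none was over 4 in the arrays of a single group only. Cdk20 was over 4 in saline arrays only. Just inside the limit lay Map3k2, over 4 in 3 arrays, and the nearest gene outside it was Stk26, over 4 in 1 array with a highest value of 4.03.

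Hippocampi were taken 1 h after an intraperitoneal injection, and the 4 groups held 3 arrays each: mutant mice given kainate at 20 mg/kg, mutant mice given saline, control mice given kainate at that dose, and control mice given saline. Kainate is a glutamate receptor agonist that evokes seizures. The mutation, by the title of the series, is a loss of the activity-regulated transcription factors CREB and CREM. All animals were littermates of 5 to 6 weeks and of both sexes, and each array carried RNA combined from 3 animals. No source used here gives the alleles, or a promoter that restricts the mutation to some cells. In bulk tissue, fewer cells of a type and less RNA per cell cannot be told apart.

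The targeted genes did not check the genotype labels. The Creb1 probe set read 7.97 ± 0.439 after kainate and 8.23 ± 0.117 after saline in arrays labelled mutant, against 6.98 ± 0.154 and 7.35 ± 0.350 in control arrays (mean log2 ± SD, n = 3 each), so it was higher with the mutant label. The Crem probe set lay between 2.82 and 3.35 in all 12 arrays, under the level taken as measured. No source used here places these probes inside or outside the deletion, so "mutant" below means the library labelled mutant. Of 12 principal neuron markers 6 were measured. Among them were the vesicular glutamate transporter gene Slc17a7 and the synaptic vesicle gene Syt1, with means of 10.7 and 12.4. Such levels show neuronal tissue and do not tell the hippocampus from other brain regions, so the region label was not checked. Array medians ran from 3.77 to 4.07 and 5741 to 6378 of 12411 probe sets were over 4. The arrays numbered 1 in the labels stood apart from those numbered 2 and 3 on the first principal component, which took 52.8% of the variance.

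Protein kinases attach phosphate to serine, threonine or tyrosine, and protein phosphatases take it off again. In hippocampal neurons glutamate receptor activity raises calcium, and calcium acts on both sides: it switches on calmodulin-dependent kinases, protein kinase C and the MAP kinase cascade, and it switches on the phosphatase calcineurin. Several of these kinases, or kinases under their control, phosphorylate CREB. Their activity is set mostly by phosphate and second messengers, which RNA levels do not measure.

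The 105 members spanned a mean log2 level of 3.85 to 12.3, with a median of 7.07, against a median of 5.88 over all 6334 tested probe sets. The probe sets with the highest means were those of Ppp3ca and Ppp3cb, the catalytic subunits of calcineurin, with 12.3 and 11.5. Then came Cdk5r1, the p35 activator of Cdk5, with 11.3, the receptor phosphatase-like gene Ptprn2 with 11.04 and the CaMKII inhibitor Camk2n1 with 10.9. These are readings of single probe sets, whose brightness differs between probes, so they do not order the genes by RNA abundance. Outside the phosphatase subunits, many of which regulate and do not catalyse, 11 symbols belong to binding proteins, inhibitors and scaffolds, such as Camk2n1, Camk2n2, Mapk8ip2 and Cdk5rap2.

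Kainate was compared with saline first, as the mean of the difference in mutant and in control arrays. Ppp1r10, Ppp1r3c and Ppp1r16a, all regulatory partners of protein phosphatase 1, were higher after kainate, as were the tyrosine phosphatase gene Ptpn1 and the CaMKII inhibitor gene Camk2n2. Both calcineurin catalytic subunit genes, the protein phosphatase 4 regulatory genes Ppp4r3a and Ppp4r2, and Prkag2, a regulatory subunit of AMP-activated kinase, were lower. These 10 passed an adjusted p of 0.05 in limma when the replicate number was fitted as a block, and the mean changes ran from -0.89 to 0.79 on the log2 scale. That is 9.52% of the 105 members, against 7.63% of all tested probe sets in the same fit, so the members' share was near the background. In each direction 5 passed (4.76%), against 2.21% of all tested probe sets for higher and 5.42% for lower. Without the block none of the 105 passed by limma and 22 reached an unadjusted p below 0.05 (21% of members, against 14.7% of all tested probe sets), while 0.41% of all tested probe sets passed. The calls below therefore rest on the pairing of arrays by replicate number. Averaged over genotypes, no change in the probe set that stood for a member reached 2-fold.

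Ppp1r10, which encodes PNUTS, a nuclear targeting subunit of protein phosphatase 1, read 8.27, 8.27 and 7.87 in mutant kainate arrays 1 to 3, 7.94, 6.90 and 6.70 in mutant saline arrays, 7.94, 7.90 and 7.77 in control kainate arrays and 7.84, 6.88 and 7.01 in control saline arrays. All kainate arrays were high, and so were both saline arrays numbered 1, which overlapped the kainate values. With the block Ppp1r10 rose by 0.79 (1.73-fold, adjusted p = 0.0210), with an SE of 0.151, against an SE of 0.230 and an adjusted p of 0.165 without it. The change was 0.21, 1.19 and 0.97 within numbers 1, 2 and 3. Ppp1r3c, which brings protein phosphatase 1 to glycogen, read 8.40, 8.68 and 8.54 in mutant kainate arrays, 8.0, 8.11 and 8.06 in mutant saline arrays, 8.11, 8.47 and 8.20 in control kainate arrays and 7.95, 8.01 and 7.82 in control saline arrays. Its kainate and saline values did not overlap within either genotype, and its arrays numbered 1 did not stand apart in the saline groups. With the block it rose by 0.41 (1.33-fold, adjusted p = 0.0136, SE 0.0697), with changes of 0.28, 0.51 and 0.43 by number. Ppp1r16a, a membrane-associated targeting subunit, read 7.72, 7.48 and 7.24 in mutant kainate arrays, 7.50, 6.89 and 6.80 in mutant saline arrays, 7.80, 7.57 and 7.39 in control kainate arrays and 7.62, 7.09 and 7.29 in control saline arrays. Within each treatment its arrays numbered 1 were the highest, and its kainate and saline values overlapped in both genotypes. With the block it rose by 0.33 (1.26-fold, SE 0.0852, adjusted p = 0.0430).

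Ptpn1 encodes PTP1B, a tyrosine phosphatase of the endoplasmic reticulum that restrains insulin and leptin receptor signalling. It read 7.17, 7.62 and 7.10 in mutant kainate arrays, 7.07, 6.75 and 6.66 in mutant saline arrays, 7.45, 7.82 and 7.25 in control kainate arrays and 7.17, 6.93 and 6.98 in control saline arrays. The groups did not overlap within a genotype, although the lowest mutant kainate array lay only just above the highest mutant saline array. With the block Ptpn1 rose by 0.48 (1.39-fold, SE 0.114, adjusted p = 0.0374). Camk2n2 encodes a small protein that inhibits CaMKII. It read 8.23, 8.41 and 8.36 in mutant kainate arrays, 8.41, 7.62 and 7.53 in mutant saline arrays, 8.89, 8.90 and 8.77 in control kainate arrays and 8.67, 7.97 and 8.30 in control saline arrays. The 3 control kainate arrays were above all other arrays, and the mutant saline array numbered 1 was as high as the mutant kainate arrays. With the block Camk2n2 rose by 0.51 (1.42-fold, SE 0.137, adjusted p = 0.0489), and within number 1 the change was 0.02. With quantile normalization added to the block its adjusted p was 0.0524.

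Both measured calcineurin genes fell after kainate with the block. Ppp3ca, the alpha catalytic subunit, read 12.30, 11.90 and 12.09 in mutant kainate arrays, 12.30, 12.55 and 12.52 in mutant saline arrays, 12.26, 11.86 and 12.05 in control kainate arrays and 12.38, 12.57 and 12.56 in control saline arrays. All 6 kainate arrays were below all 6 saline arrays, although the mutant arrays numbered 1 were equal at 2 decimals. Ppp3ca fell by 0.40 with the block (1.32-fold, SE 0.0879, adjusted p = 0.0320, against 0.102 without it), and a second Ppp3ca probe set also passed with the block, at -0.34 (adjusted p = 0.0403). Ppp3cb, the beta catalytic subunit, read 11.57, 11.27 and 11.26 in mutant kainate arrays, 11.50, 11.53 and 11.46 in mutant saline arrays, 11.62, 11.37 and 11.39 in control kainate arrays and 11.80, 11.74 and 11.69 in control saline arrays. Its kainate values were below saline in control arrays, while in mutant arrays the kainate array numbered 1 was above all saline arrays. With the block Ppp3cb fell by 0.20 (1.15-fold, SE 0.0544, adjusted p = 0.0478). Its other probe sets, with means of 5.38 and 5.12, gave -0.11 and 0.00. With quantile normalization added to the block neither gene passed (adjusted p = 0.0520 and 0.102).

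Of 4 measured regulatory genes of protein phosphatase 4, a nuclear and centrosomal serine/threonine phosphatase, 2 fell with the block. The others, Ppp4r1 and Ppp4r3b, had changes of 0.01 and -0.09 (adjusted p with the block = 0.943 and 0.602). Ppp4r2, a core regulatory subunit, read 8.15, 7.83 and 7.88 in mutant kainate arrays, 8.40, 8.59 and 8.79 in mutant saline arrays, 8.17, 7.83 and 7.54 in control kainate arrays and 8.18, 8.64 and 8.55 in control saline arrays. The kainate and saline arrays did not overlap, and the control arrays numbered 1 sat close together on either side of the gap. With the block Ppp4r2 fell by 0.62 (1.54-fold, SE 0.134, adjusted p = 0.0305), and its second probe set passed as well, at -0.60 (adjusted p = 0.0407). Ppp4r3a, which encodes a substrate-binding subunit, read 6.37, 5.07 and 5.68 in mutant kainate arrays, 6.82, 6.62 and 6.34 in mutant saline arrays, 6.32, 5.75 and 4.71 in control kainate arrays and 6.54, 6.31 and 6.59 in control saline arrays. The kainate arrays were spread widely and the saline arrays were not, with a small overlap in both genotypes. With the block Ppp4r3a fell by 0.89 (1.85-fold, SE 0.211, adjusted p = 0.0372), whereas its second probe set, with a mean of 4.62, gave 0.07. With quantile normalization added to the block Ppp4r3a did not pass (adjusted p = 0.0522).

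Prkag2 encodes a nucleotide-sensing gamma subunit of AMP-activated kinase, an energy-responsive enzyme. It read 8.80, 8.82 and 8.77 in mutant kainate arrays, 8.84, 9.30 and 9.31 in mutant saline arrays, 8.78, 8.74 and 8.63 in control kainate arrays and 8.86, 9.40 and 9.35 in control saline arrays. All kainate arrays were low, and both saline arrays numbered 1 were nearly as low while the other saline arrays were high. With the block Prkag2 fell by 0.42 (1.34-fold, SE 0.0974, adjusted p = 0.0351). Its other probe sets gave -0.37 and 0.59, the last from a set whose r suffix marks that design rules for the probes were relaxed.

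**Figure D1:**
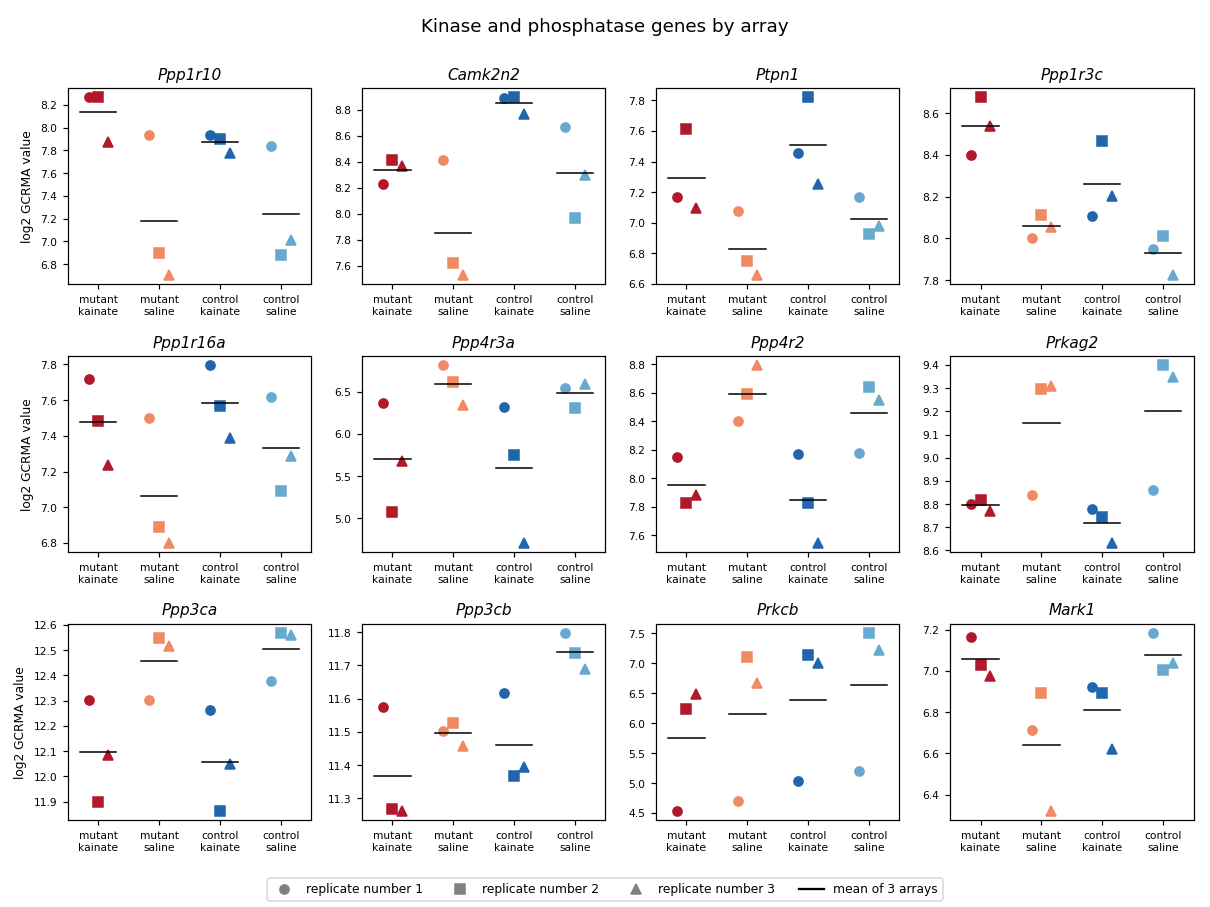
Log2 GCRMA values of 12 kinase and phosphatase genes in each of the 12 arrays, by group on the horizontal axis, with marker shape giving the replicate number and a line at the mean of 3 arrays. In Ppp1r10 and Prkag2 the saline arrays numbered 1 (circles) lie with the kainate arrays, in Prkcb all 4 arrays numbered 1 lie under 5.5, and in Mark1 the kainate arrays lie above the saline arrays in the mutant and below them in the control.

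Promoters of some of the members that passed are shown, because CREB binds the cAMP response element, the letters TGACGTCA. CREB also binds a short form of it, TGACG, which on the other strand reads CGTCA. The promoters of Ppp3cb, Ppp4r2, Prkag2 and Ptpn1, which passed too, are not printed, and those of Ppp3cb and Ppp4r2 hold the short form. Both strands were searched. The windows come from RefSeq promoter sequences of GRCm38.p6, and the table covers 250 bases before to 50 bases after a start. The full element holds the short form on both strands and is counted with it. Capitals mark the match, and windows without capitals held none in the printed stretch. Camk2n2 (chr16:20621399-20621478, minus strand) holds a short form that starts 162 bases before the gene's start, and in Ppp4r3a (chr12:101083703-101083782, minus strand) one starts 32 bases before it. Ppp1r10 (chr17:35917116-35917195, plus strand), Ppp1r3c (chr19:36736605-36736684, minus strand) and Prkcb (chr7:122289045-122289124, plus strand) are shown over the 80 bases before the start. Ptpn11 (chr5:121191421-121191500, minus strand), which did not pass in any comparison, is shown for its full element, which starts 67 bases before the start.
Camk2n2: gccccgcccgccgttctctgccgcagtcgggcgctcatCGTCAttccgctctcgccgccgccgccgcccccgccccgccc
Ppp4r3a: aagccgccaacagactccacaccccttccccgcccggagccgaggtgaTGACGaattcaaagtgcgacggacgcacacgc
Ppp1r10: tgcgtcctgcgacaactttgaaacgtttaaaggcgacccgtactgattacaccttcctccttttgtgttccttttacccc
Ppp1r3c: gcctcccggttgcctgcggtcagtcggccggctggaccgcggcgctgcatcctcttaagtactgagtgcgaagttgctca
Prkcb: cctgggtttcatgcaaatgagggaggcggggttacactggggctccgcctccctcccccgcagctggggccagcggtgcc
Ptpn11: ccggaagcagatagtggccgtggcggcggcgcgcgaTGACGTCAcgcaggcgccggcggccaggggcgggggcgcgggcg

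Of the 105 members, 85 had a promoter in that table, matched by symbol. The full element was present in 4 of them (4.71%), namely Prkcz, Ptpn11, Stk38l and Ppp1r12c, against 3.63% of 3750 measured genes and 2.03% of all 27025 genes in the table. The short form was present in 36 (42.4%), against 36.6% of measured genes and 23.0% of all genes. Of 11 members that passed with the block for kainate or genotype, 9 had a promoter, 4 of these held the short form and 0 the full element. These are counts of letters in a window and not of bound sites.

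By class, protein phosphatase 1 genes lay mostly on the higher side. Classes were set by gene symbol, so they also take in binding proteins, inhibitors and scaffolds that carry the name. Of 16 measured, 14 had a change above 0 with a median of 0.16, and 3 rose with the block. With each array centred on its median 10 of the 16 were above 0, with a median of 0.11, and the median over all tested probe sets was 0.01 before and -0.04 after that centring. Among the rest of the class, Ppp1r9b, the dendritic spine scaffold spinophilin, had a change of 0.33 (adjusted p with the block = 0.0841), and Ppp1r1b, the dopamine-responsive inhibitor DARPP-32, had 0.18 (0.557). Ppp1r9b read 10.38, 10.49 and 10.28 in mutant kainate arrays, 10.41, 9.94 and 9.76 in mutant saline arrays, 10.39, 10.65 and 10.52 in control kainate arrays and 10.53, 9.99 and 10.12 in control saline arrays. Its saline arrays numbered 1 lay among the kainate arrays. Within numbers 1, 2 and 3 the change of Ppp1r1b was -0.52, 0.67 and 0.38. Casein kinase genes, constitutively active kinases, were above 0 in 4 of 4 with a median of 0.18, led by Csnk1e at 0.46 (adjusted p with the block = 0.0543), and none of the 4 passed. This direction depended on the probe set used. Dimmer probe sets of Csnk1g3 and Csnk2a2 gave -0.66 and -0.15 (adjusted p with the block = 0.0551 and 0.392). Csnk1e, which acts in the circadian clock, was higher in all 6 kainate arrays than in all 6 saline arrays. Such a gap appeared in 4 of the 105 members (3.81%, against 1.75% of all tested probe sets), the others being Ppp4r2, Ppp3ca and Prkag2 in the opposite direction.

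In the MAP kinase cascade 8 of 14 members were above 0 with a median of 0.05, and none passed. The lowest of them was Map2k5, the activator of ERK5, at -0.96. Its only probe set carries the r suffix that marks relaxed design rules. Mapk9, the stress-activated kinase JNK2, had a change of 0.01 (95% confidence interval -0.12 to 0.14). All intervals given here come from the fit without the block. Map2k4, which activates JNK and p38, had 0.20 (adjusted p with the block = 0.0788). Of the CaMKII catalytic genes, Camk2d had -0.08 (-0.32 to 0.17) and Camk2g had -0.06 (-0.30 to 0.18). Camk4, a nuclear kinase that phosphorylates CREB, had 0.10 (-0.21 to 0.41), and Camkk2, which activates CaM kinases and AMP-activated kinase, had 0.22 (0.05 to 0.38, adjusted p with the block = 0.0729). Camkk2 read 8.80, 8.88 and 8.79 in mutant kainate arrays, 8.75, 8.48 and 8.45 in mutant saline arrays, 8.68, 8.60 and 8.66 in control kainate arrays and 8.55, 8.44 and 8.41 in control saline arrays. Its kainate arrays were above the saline arrays within each genotype, by a small margin. A second Camkk2 probe set, with a mean of 7.98, went the other way, at -0.37 (adjusted p with the block = 0.104). Rps6ka5, the CREB kinase MSK1, had 0.02 (-0.25 to 0.29). Of 36 kinase and phosphatase genes listed for known roles upstream of CREB or in plasticity, 17 were measured, so several main isoforms were not analysed here.

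In the PKA, PKC, PKD and AMPK class, 6 of 15 members were above 0 with a median of -0.04, and Prkag2 passed with the block. Prkce, a protein kinase C gene of the calcium-independent type, read 9.61, 10.49 and 10.54 in mutant kainate arrays, 9.85, 9.62 and 9.59 in mutant saline arrays, 9.88, 10.58 and 10.44 in control kainate arrays and 9.86, 9.73 and 9.70 in control saline arrays. The 4 kainate arrays numbered 2 and 3 were all above the other 8 arrays. The mean change was 0.53 (adjusted p with the block = 0.0578), and it was -0.11, 0.86 and 0.85 by number. Protein phosphatase 2A subunit genes were below 0 in 5 of 6 with a median of -0.12, receptor tyrosine phosphatase genes in 4 of 5 with a median of -0.11, and cyclin-dependent kinase genes in 7 of 12 with a median of -0.03. None of these 3 classes held a member that passed. Outside the rule for naming genes, Map2k5 and Ptpn4, a cytoskeleton-associated tyrosine phosphatase gene, are named because their changes of -0.96 and -0.82 were among the lowest, which was seen before they were chosen. Neither passed with the block (adjusted p = 0.119 and 0.054), and the lowest Map2k5 value, 2.58 in control kainate array 3, made its change uneven across numbers (-0.08, -0.67 and -2.12).

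**Figure D2:**
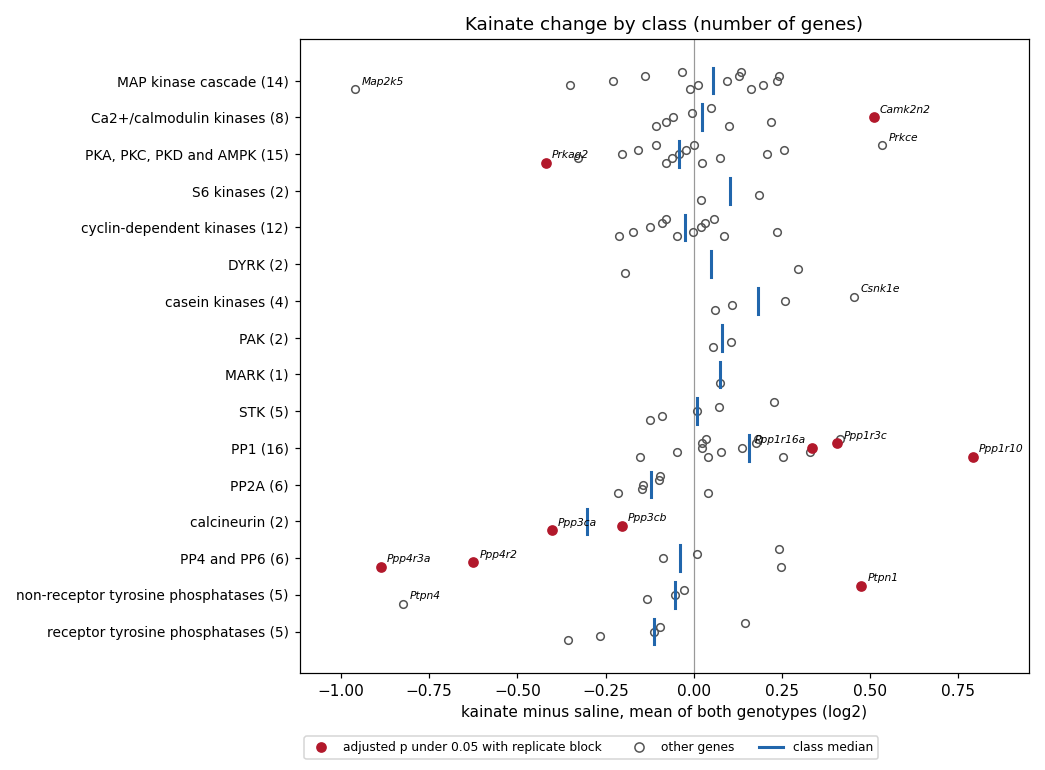
Log2 kainate minus saline difference, mean of both genotypes, for the 105 genes in 16 classes, with the number of genes in brackets, filled points for adjusted p under 0.05 with the replicate block and a vertical bar at the class median. The 14 protein phosphatase 1 genes above 0 and both calcineurin genes below 0 can be seen, with Ppp1r10 at 0.79 the highest point.

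Other probe sets of the same genes gave a different view for some members. Among 32 genes with several measured probe sets, the kainate change had 1 sign in 14 and mixed signs in 18. With any measured probe set allowed and the block, a choice made after the data were seen, 14 genes passed (13.3% of members, against 9.14% of all 4617 measured genes by the same choice). The added genes were Cdk5r1, Camk2n1, Ppp2r2c and Prkab2. One Cdk5r1 probe set read 7.21, 6.60 and 6.88 in mutant kainate arrays, 7.88, 8.24 and 8.18 in mutant saline arrays, 8.0, 7.16 and 6.83 in control kainate arrays and 7.98, 8.54 and 8.53 in control saline arrays. Apart from control kainate array 1 the kainate values were lower than every saline value, and the mean change was -1.11 (adjusted p with the block = 0.0165). The 2 other Cdk5r1 probe sets gave 0.00 and 0.06. A Camk2n1 probe set read 7.47, 8.21 and 8.08 in mutant kainate arrays, 7.30, 7.04 and 7.51 in mutant saline arrays, 7.67, 7.66 and 7.58 in control kainate arrays and 7.12, 7.19 and 7.23 in control saline arrays. It was higher in kainate arrays by 0.55 (adjusted p with the block = 0.0330), while the brighter Camk2n1 probe set gave 0.00. The probe sets of Ppp2r2c and Prkab2 that passed gave -0.32 and -0.48.

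Shares of variance were ranked among replicate number, kainate, genotype and the interaction of kainate and genotype, with the residual left out. The number led in 59 members (56.2%, against 61.2% of all tested probe sets), and kainate in 31 (29.5%, against 20.7%). In some of the 59 the residual was larger than the share of the number, as in Cdk10 (85.96% against 7.35%). The median share of a member's variance was 30.02% for the number, 9.20% for kainate and 4.83% for genotype. It was 2.05% for the interaction and 26.53% for the residual. The largest share for the number was 95.6% in Camk1d. In 7 of the 10 members that passed, the saline array numbered 1 lay beyond both other saline arrays on the side of kainate. These were the same 7 genes in mutant and in control arrays. The pattern was not counted over the other members or all tested probe sets, and the 10 had been picked by the block fit. Its shift was taken as a share of the distance between the saline and kainate means of numbers 2 and 3. For the saline array numbered 1 this had a median of 49.6% in mutant and 41.3% in control arrays, with ranges of -30.4% to 127% and -25.3% to 149%. With arrays numbered 2 and 3 alone, 29 of 105 members passed for kainate averaged over genotypes (27.6%, against 22.3% of all tested probe sets), and these included all 10. Of the 29, 18 were higher (17.1%, against 8.76%) and 11 lower (10.5%, against 13.5%). Among them Prkce had 0.85 (adjusted p = 7.02e-05), Ppp1r9b had 0.53 (0.00177) and Ppp1r1b had 0.52 (0.00937). No source used here says what the numbers stand for.

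Within genotypes the kainate change could be set side by side, since mutant and control arrays share no samples. In mutant arrays none of the 105 members passed by limma, and 11 reached an unadjusted p below 0.05 in the fit without the block (10.5%, against 6.28% of all tested probe sets). Of all tested probe sets 0.174% passed without the block and 0.363% with it. In control arrays none passed by limma, and 15 reached an unadjusted p below 0.05 (14.3%, against 11.6%). There 0.158% of all tested probe sets passed without the block and 0.584% with it. In control arrays 2 members changed more than 2-fold (1.9%, against 1.09% of all tested probe sets). The members with the smallest p were Ppp1r3c, Ppp4r2, Prkx and Ppp1r10 in mutant arrays, with 0.48, -0.64, 0.35 and 0.95. In control arrays they were Dyrk3, Ppp3ca, Cdk20 and Ppp4r2, with 0.50, -0.44, -0.36 and -0.61. Cdk20 was over 4 in 4 arrays only, the 3 control saline arrays and mutant saline array 3. It met the level filter through saline arrays alone, so its fall after kainate is tied to that filter. With numbers 2 and 3 alone, 10 members passed in mutant arrays and 14 in control arrays (9.52% and 13.3%, against 9.41% and 10.1% of all tested probe sets).

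Across the 105 genes, which are not independent replicates, the mutant and control changes had a Pearson correlation of 0.724, against 0.625 over all tested probe sets, and 74 of 105 had 1 sign. Within replicate numbers 1, 2 and 3 the correlation was 0.07, 0.76 and 0.57. The correlation was thus near 0 for number 1 and clearly above 0 for numbers 2 and 3, and the 4 arrays of a number share whatever that number stands for.

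**Figure D3:**
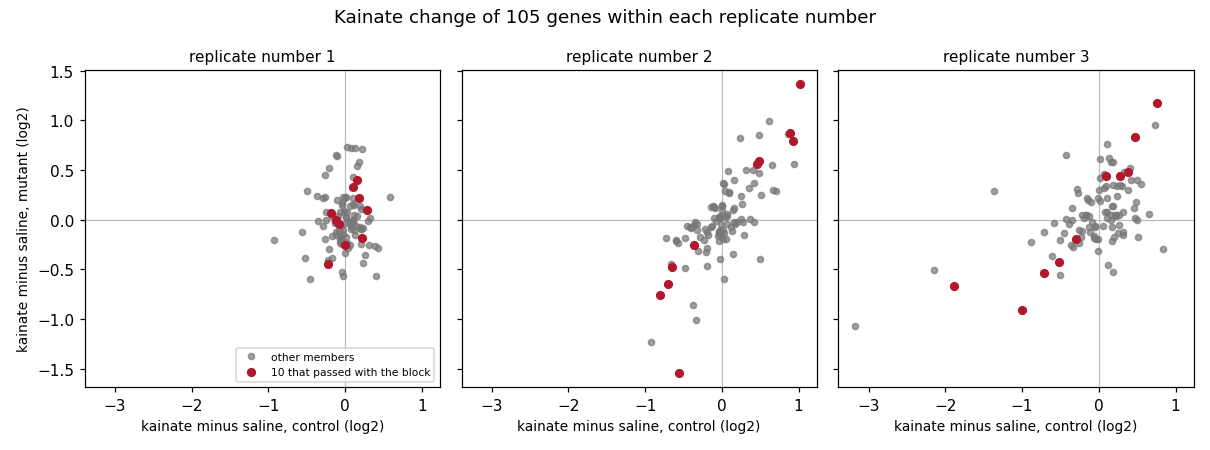
Log2 kainate minus saline difference of the 105 genes in mutant arrays (vertical) against control arrays (horizontal), within each replicate number, with the 10 genes that passed with the block filled in red. Points lie along the rising diagonal for numbers 2 and 3 (r of 0.76 and 0.57) and form a narrow upright cloud for number 1 (r of 0.07).

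The comparison that the series title points to is the difference between these responses. No member passed it by limma in either fit, and 1 reached an unadjusted p below 0.05 without the block (0.952%, against 2.32% of all tested probe sets). Of all tested probe sets 0% passed in either fit. That member was Mark1, which encodes a kinase that detaches tau and other proteins from microtubules. It read 7.16, 7.03 and 6.98 in mutant kainate arrays, 6.71, 6.89 and 6.32 in mutant saline arrays, 6.92, 6.89 and 6.62 in control kainate arrays and 7.18, 7.003 and 7.04 in control saline arrays. Kainate arrays were all higher than saline arrays in the mutant and all lower in the control. The response was 0.41 in mutant and -0.27 in control arrays, a difference of 0.68 (SE 0.222, 95% confidence interval 0.19 to 1.17, adjusted p = 1.00, with the block 0.545). Dyrk3, a stress granule kinase, read 7.29, 7.03 and 7.18 in mutant kainate arrays, 7.06, 7.05 and 7.12 in mutant saline arrays, 7.60, 7.55 and 7.46 in control kainate arrays and 7.02, 7.28 and 6.80 in control saline arrays. The control kainate arrays were above all the other arrays. Next by p after Mark1 came Dyrk3, Csnk2a2 and Cdkl2, with differences of -0.42, -0.36 and -0.38. A second, dimmer Csnk2a2 probe set gave 0.05. For the 10 members that rose or fell with the block, the differences ran from -0.06 to 0.33. Each interval came from the fit without the block and included 0. The difference was 0.33 (-0.69 to 1.34) for Ppp1r10 and 0.09 (-0.31 to 0.48) for Ppp3ca.

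Genotypes were then compared across both treatments. Prkcb, a calcium-dependent protein kinase C gene of principal neurons, was lower in mutant arrays and was the single member that passed with the block (0.952% of members, against 2.32% of all tested probe sets). Without the block none passed and 10 reached an unadjusted p below 0.05 (9.52%, against 6.47%), while 0.253% of all tested probe sets passed. Prkcb read 4.53, 6.24 and 6.49 in mutant kainate arrays, 4.70, 7.10 and 6.66 in mutant saline arrays, 5.03, 7.13 and 6.998 in control kainate arrays and 5.19, 7.51 and 7.23 in control saline arrays. Arrays numbered 1 were low in every group, and at each number both mutant arrays were below both control arrays. Prkcb fell by 0.56 in the mutant with the block (1.47-fold, SE 0.0996, adjusted p = 0.0202), against an SE of 0.608 and an adjusted p of 0.999 without it. The genotype difference was -0.49, -0.65 and -0.54 by number, and the number took 88.6% of the variance of this gene. It had 1 measured probe set, and with numbers 2 and 3 alone the difference was -0.59 and did not pass (adjusted p = 0.0826). Without the block, the change ran from -0.92 without control saline array 1 to -0.20 without mutant saline array 1.

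Other differences between genotypes did not pass. Prkca, a related calcium-dependent isoform, had the smallest p without the block, at -0.26 (SE 0.0754, adjusted p = 0.329, with the block 0.141). It read 9.59, 9.65 and 9.65 in mutant kainate arrays, 9.84, 9.83 and 9.71 in mutant saline arrays, 9.97, 9.77 and 9.95 in control kainate arrays and 9.90, 10.25 and 10.004 in control saline arrays. The mutant arrays were all below the control arrays within each treatment. The 2 CaMKII inhibitor genes differed in opposite directions, with Camk2n2 at -0.49 (adjusted p with the block = 0.123) and Camk2n1 at 0.24 (0.0962). Ptprg, a receptor tyrosine phosphatase gene, had 0.29 (adjusted p with the block = 0.245). Genes of the cyclin-dependent kinase class were below 0 in 10 of 12 with a median of -0.05, and none passed. The median over all tested probe sets was 0.00. This class, set by symbol, includes Cdk5r1, Cdk5rap2 and the Cdkl genes.

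**Figure D4:**
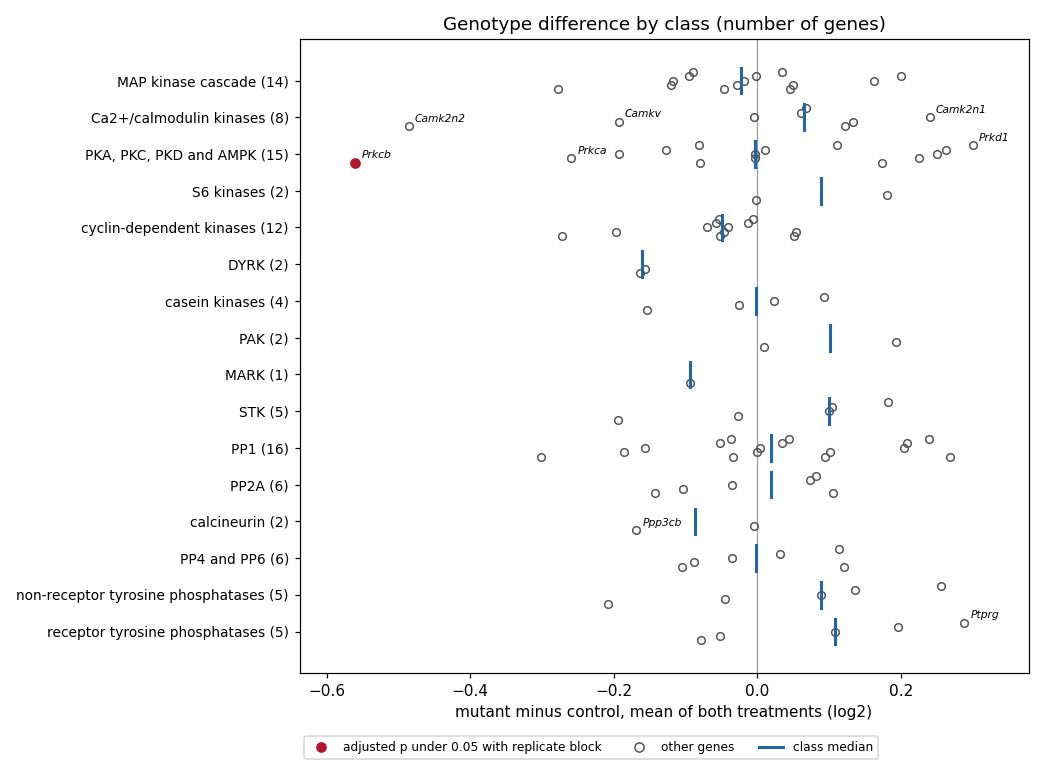
Log2 mutant minus control difference, mean of both treatments, for the 105 genes in 16 classes, drawn as in the plot of kainate changes by class. Prkcb at -0.56 is the single filled point, and most class medians lie close to 0.

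After kainate alone, none of the 105 members passed by limma between mutant and control arrays and 7 reached an unadjusted p below 0.05 (6.67%, against 4.67% of all tested probe sets, of which 0.0632% passed without the block and 0.111% with it). The members with the smallest p were Prkaa2, a catalytic subunit of AMP-activated kinase, with 0.32, Csnk2a2 with -0.33, Dyrk3 with -0.37 and Prkca with -0.27. After saline, none passed by limma and 3 reached an unadjusted p below 0.05 (2.86%, against 3.88%), while 0% of all tested probe sets passed without the block and 0.142% with it. These 3 were Mark1 with -0.43, Ppp3cb with -0.25 and Prkca with -0.25.

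Markers of other cell types were read beside these differences. Between genotypes, the 4 measured of 8 microglia markers were above 0 in the mutant with a median of 0.62, and their summed level was 8.40 to 8.60 in mutant kainate and 8.03 to 8.45 in mutant saline arrays, against 7.89 to 8.05 in control kainate and 7.74 to 7.80 in control saline arrays (log2). With the block 3 of these 4 were higher, and 1 was without it. All 7 measured of 10 astrocyte markers were above 0 with a median of 0.23, and 3 of them were higher with the block. The summed astrocyte level was 13.8 in mutant kainate and 13.8 to 13.9 in mutant saline arrays, against 13.5 to 13.7 in control kainate and 13.6 to 13.7 in control saline arrays. The 6 measured principal neuron markers had a median of -0.32, and 2 of them were lower with the block. Their summed level was 13.1 in mutant kainate and 13.0 to 13.1 in mutant saline arrays, against 13.1 to 13.2 in control kainate and 13.0 to 13.2 in control saline arrays. In this comparison 0.805% of all tested probe sets were higher and 1.52% lower with the block. The part of these cell type markers in the genotype difference of Prkcb was not tested. After kainate the 3 measured of 9 interneuron markers had a median of -0.50, with 1 lower with the block. Their summed level was 10.37 to 10.82 in mutant kainate and 10.51 to 10.89 in mutant saline arrays, and 10.28 to 10.45 in control kainate and 10.70 to 10.97 in control saline arrays. The 4 microglia markers were all above 0 after kainate, with a median of 0.26 and none passing. Of the 7 astrocyte markers, 2 were above 0 with a median of -0.06, and Slc1a3, a glutamate transporter gene, fell by 0.89 with the block (adjusted p = 0.0301). Of 8 choroid plexus markers 1 was measured, Clic6, with a change of -0.96 (adjusted p with the block = 0.0592). It lay between 5.08 and 6.83 in mutant kainate and 5.30 and 7.02 in mutant saline arrays, and between 4.19 and 5.76 in control kainate and 6.28 and 6.72 in control saline arrays. The part of all these markers in the kainate changes was not tested.

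Other genes of phosphorylation signalling, outside the symbol rule, were read from 3 lists, and 0.41% of all tested probe sets passed without the block and 7.63% with it (2.21% higher and 5.42% lower). Of 21 measured among 31 listed phosphatases, whose median change was 0.01, 2 rose after kainate without the block, both dual-specificity phosphatases that inactivate MAP kinases: Dusp5 by 2.51 (limma adjusted p = 8.13e-08) and Dusp4 by 0.82 (adjusted p = 0.00718). With the block 3 were higher and 1 lower, the lower one being Ppm1e, a phosphatase of CaM kinases and PAK, at -0.51. Of 20 measured among 51 listed other kinases, with a median of -0.09 and a range of -0.50 to 0.47, none passed without the block by limma and 2 reached an unadjusted p below 0.05. With the block Brsk1, a kinase of neuronal polarity, rose by 0.47, and 3 fell: the synaptic kinase gene Tnik at -0.50, the glycogen synthase kinase gene Gsk3b at -0.50 and Trio at -0.38. Of 14 measured among 39 listed anchors and inhibitors, Spry2 and Spry1, which restrain receptor tyrosine kinase signalling to the MAP kinase cascade, rose by 1.36 and 0.73 (adjusted p = 0.000322 and 0.0473). The highest change among the 105 members, 0.79 for Ppp1r10, was below those of Dusp5, Dusp4 and Spry2 on the same log2 scale of differences.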

How the data were processed

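RNA of pooled mouse hippocampi was hybridised to 12 arrays. The authors deposited log2 values for each probe set, made with GCRMA, which models background from probe sequences, in R 2.4.1, per the submitters' processing notes. No source used here gives its settings, and the log2 unit was judged from the values. Precision is limited by how few arrays there are.

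Of 12477 table entries 66 were controls. The 6334 probe sets over 4 in at least 3 arrays were fitted with limma 3.58.1 in R 4.3.3, with an intensity trend and 1 mean per group over all 12 arrays. Benjamini-Hochberg adjustment ran over all 6334, with a threshold of 0.05. Probe sets were named from the platform annotation, in which 10581 had 1 symbol, 178 several and 1652 none. All 105 member symbols matched RefSeq GRCm38.p6 by Entrez identifier. The calculations were checked on simulated data.

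Replicate numbers 1 to 3 come from the labels, which call the arrays biological replicates. In deviations from group means, all 18 pairs of arrays with 1 number correlated over 0.1 (0.361 to 0.881). Of 36 other pairs (-0.782 to 0.583) 12 did so, each joining number 2 with number 3 (0.309 to 0.583). Every pair of number 1 with another number had a negative correlation. The check thus set number 1 apart and does not show that numbers 2 and 3 are separate matched sets. The number, with 3 levels, was also fitted as a block, beside the fit without it. Alternatives were quantile normalization, median centring, other level filters, no intensity trend, numbers 2 and 3 alone, other probe sets and leaving out each array.

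Members and lists were chosen with earlier results of these data known. Named were members that passed without or with the block, the 4 smallest p in each comparison, the 2 highest means per class and genes with listed roles.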

Additional observations from a re-analysis of the deposited data

Results flagged for a closer look

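In Mark1 the kainate and saline arrays did not overlap within either genotype, and their order was opposite in mutant and control arrays. It was higher after kainate in mutant arrays, with 7.06 ± 0.0974 after kainate and 6.64 ± 0.292 after saline, and lower in control arrays, with 6.81 ± 0.166 after kainate and 7.08 ± 0.0952 after saline (mean log2 ± SD, n = 3 each). The same values put the mutant above the control after kainate and below it after saline. The difference of responses was 0.68, positive at each of the 3 replicate numbers (0.71, 0.25 and 1.08), and it did not pass the test of the difference by limma (adjusted p = 1.00 without and 0.545 with the block). It was found among 105 members, 1 of which had an unadjusted p under 0.05 for this difference. The difference of responses had 1 sign at all 3 numbers in 33.3% of members and in 34.1% of all tested probe sets. Cdkl2, Map3k2 and Prkaa2 also had opposite responses in mutant and control arrays at every number. For Prkaa2 the control response at number 1 was only -0.0015, and Cdkl2 and Map3k2 had means of 3.95 and 3.85, under 4. How many of all tested probe sets had this pattern was not counted. Mark1 had 1 measured probe set.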

How the results depend on the processing

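None of the 105 members passed for kainate averaged over genotypes without the block, 10 passed with it, 7 with the block and quantile normalization (6 of them among the 10, the other being Map2k4, with 5.87% of all tested probe sets), 14 with the block and any measured probe set of a gene (added after the data were seen) and 29 with arrays numbered 2 and 3 alone. Leaving out 1 array without the block gave 0 to 6, namely 6 without mutant kainate array 1 (4 of them among the 10, with 3.84% of all tested probe sets), 1 without mutant saline array 1 and 0 in the other 10 fits. In mutant and in control arrays 10 and 14 passed with numbers 2 and 3 alone, and 0 in each fit that left out 1 array. For genotype averaged over treatments 1 passed with the block, with the block and quantile normalization, and with the block and any probe set, in each case Prkcb, 0 with numbers 2 and 3 alone, and 0 to 0 when 1 array was left out. For the difference of responses and for mutant against control within a treatment, 0 passed under each alternative run. The block changed no other call. Centring each array on its median moved the median of all tested probe sets for kainate in control arrays to -0.12, against 0.02 before, and for the difference of responses to 0.17, against -0.02, and no member passed. Of 35 changes of named genes under 20 alternatives, 697 of 697 values kept their direction and 38 passed where the fit without the block did not. These 20 were refits of the same probe sets, 12 of them leaving out 1 array, so they shared most of the data. The changes had been chosen for passing or for a small p. Other probe sets of the same genes were not among the 20, and some went the other way. For kainate, such sets gave 0.59 for Prkag2 and 0.07 for Ppp4r3a. With 3 arrays per group and values close to background for 9 members, small changes may have gone undetected, and Cdk20, Cdkl2 and Map3k2 lie near the limit of 4.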
